A study of Mus musculus with 6 samples.

Results

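The genes described here are 8 transcription factor genes of the RUNX, SOX and SP families that are best known from bone and cartilage: Runx1, Runx2, Runx3, Cbfb, Sox5, Sox8, Sox9 and Sp7. They were taken by name from the 55536 genes in the count tables, and all 8 passed the filter on low counts, which left 22404 genes in the test. RNA was measured in satellite cells, the stem cells of skeletal muscle, in 3 control and 3 cKO libraries from C57BL/6J mice. Control cells carried Pax7CreErt2 with 1 floxed Hira allele (Hira fl/+, a genotype the labels also call WT), and cKO cells carried Pax7CreErt2 with both alleles floxed (Hira fl/fl). Both groups therefore had the Cre, which the Pax7 promoter drives, and both had tamoxifen in their food for 2 weeks and then regular food for 1 week. The donors were adult males of 8 to 12 weeks whose tibialis anterior muscles were injured with BaCl2. Cells that were CD34+ and ITGA7+ and negative for CD45, TER119 and SCA1 were sorted 5 days after injury. They were cultured for 48 h on Matrigel in medium with fetal calf serum and basic FGF. The libraries came from independent RNA samples, and the sources used here do not say that each came from a separate mouse, so p-values measure the spread between these libraries, which may be technical.

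RUNX proteins bind DNA through their Runt domain and need CBFB, a partner that does not bind DNA itself but raises their affinity. RUNX2 is the factor that commits mesenchymal progenitors to bone, SP7 (osterix) acts after it in the osteoblast, and SOX9 with its partners SOX5 and SOX6 directs cartilage. RUNX1 is best known from blood formation and is also made in muscle after injury or denervation, RUNX3 is known from T cells and sensory neurons, and SOX8, a close relative of SOX9, is known from neural crest, testis and satellite cells.

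Each library held between 47944477 and 63323577 counts. Where groups are compared, levels are given as CPM (scaled to each library's summed counts), and where genes are compared with each other they are given as TPM, which also divides by exon length. Hira itself had 375, 348 and 341 counts in controls 1 to 3 and 161, 293 and 272 in cKO 1 to 3, so that every cKO library was below every control. The means were 5.89 ± 0.640 and 4.39 ± 0.898 CPM (SD, n = 3 each). The log2 fold change was -0.43 ± 0.12 (SE, edgeR quasi-likelihood adjusted p = 0.0237), and without control 1 the adjusted p was 0.104. Another annotated gene, Gm28539, covers 44.7% of the exon bases of Hira on the same strand and had 0 counts in every library. Across all genes 3549 were called at an adjusted p under 0.05, which is 15.8% of those tested, 2101 of them higher in cKO and 1448 lower.

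Markers fixed as lists for the cell types that the sort or the culture could hold moved between the groups. Among 12 tested myogenic markers, 10 were lower in cKO, and their summed level was 9737 to 9851 CPM in controls and 8646 to 9172 CPM in cKO libraries, so these genes, Pax7, Myod1 and Myog among them, were present in all 6 libraries. Of 25 macrophage markers 22 were higher, with sums of 212 to 220 against 447 to 526 CPM. Fibroblast markers were higher for 9 of 13 tested (sums of 614 to 637 against 793 to 874 CPM), and endothelial markers for 5 of 12 (sums of 23.4 to 25.3 against 33.8 to 40.7 CPM). Schwann cell markers had 1 higher and 1 lower of 8 tested (median log2 fold change 0.32). Of these 8, 6 had every cKO library above every control, as 20.3% of all tested genes did, and 1 had every cKO library below. Their sum was 244 to 252 CPM in controls and 230 to 237 CPM in cKO. Tendon markers had 1 higher and 1 lower of 5 tested. Lymphocyte markers summed to 1.61 to 2.09 CPM in controls and 1.30 to 2.13 CPM in cKO, with Ms4a1 and Ncr1 at 0 in every library. In RNA from a population of cells, fewer cells of a type and less RNA per cell cannot be told apart.

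Of the 8 genes, 5 were called: Sp7, Runx2, Cbfb and Runx1 were lower in cKO and Sox8 was higher, though scaled to the summed myogenic markers Runx2 was no longer called and Cbfb and Runx1 changed sign. The background for these counts is 6.46% of all tested genes lower and 9.38% higher. Among the 10481 genes with a mean of at least 10 CPM, a level that 6 of the 8 reach, 22% were called, 10.4% higher and 11.5% lower. The same 5 genes were those whose libraries did not overlap between the groups in CPM, a pattern seen in 31.4% of tested genes (20.3% higher and 11.1% lower in cKO). Sp7 had the largest fall (21.6%) by its estimate, and Sox8 the only rise that was called (28.2%). The median log2 fold change of the 8 genes was -0.15, and that of all tested genes was -0.0011. The plot of CPM by library shows the spread behind these calls.

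**Figure D1:**
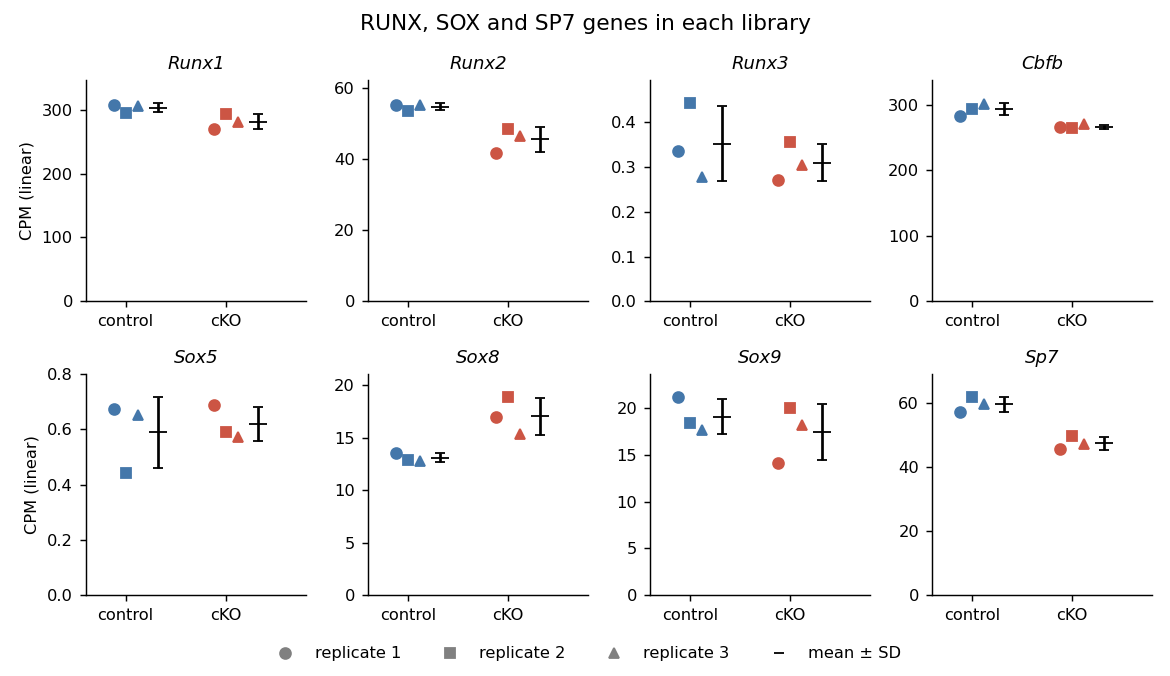
CPM of each of the 8 genes in each library on linear axes that start at 0, with control libraries in blue, cKO libraries in red, symbols for the replicate number, and the mean with its SD (n = 3) in black. The cKO points of Runx1, Runx2, Cbfb and Sp7 all sit under the control points, those of Sox8 sit above them, and those of Runx3, Sox5 and Sox9 overlap them.

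The 3 RUNX genes are close copies in the part that encodes the Runt domain, so it matters whether a 75-base read can tell them apart. The closest stretches of that length within an exon, found by comparing the coding sequences of the GENCODE annotation, are shown because they set this limit, with the differing bases in capitals.
Runx1: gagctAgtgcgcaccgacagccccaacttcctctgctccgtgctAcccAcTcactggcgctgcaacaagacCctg
Runx3: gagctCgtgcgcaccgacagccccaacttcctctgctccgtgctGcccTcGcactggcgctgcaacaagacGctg
This pair differs at 5 of 75 bases, the closest pair of Runx1 and Runx2 differs at 8, and that of Runx2 and Runx3 differs at 6. Sox8 and Sox9, which share the DNA-binding HMG box, come closest in the following stretch and differ there at 8 bases.
Sox8: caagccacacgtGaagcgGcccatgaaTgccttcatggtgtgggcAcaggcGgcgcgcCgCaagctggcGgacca
Sox9: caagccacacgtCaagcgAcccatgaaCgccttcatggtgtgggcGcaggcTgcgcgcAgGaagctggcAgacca
No stretch of 75 bases was shared whole between any pair of the 8 genes. In these coding stretches at least 5 mismatches thus keep a whole read of 1 member from another. Reads of overlapping antisense genes are a separate limit, given beside each gene, because the sources used here do not state the strand setting of the counting.

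The start regions of the 3 RUNX genes share a short sequence and are shown here for that reason. A link between this sequence and the changes in cKO was not tested. In the RefSeq promoter table (build GRCm38.p6), Runx1 and Runx3 have a distal and a proximal start, while Runx2 has a single window. For the distal starts and that of Runx2, 300 bases are given 5′ to 3′ on the strand of the gene. They run from 250 bases before the start to 50 after. The sequences are Runx1 at chr16:92826025-92826324 (minus strand), Runx2 at chr17:44814578-44814877 (minus strand) and Runx3 at chr4:135120395-135120694 (plus strand), and capitals mark the longest run that all 3 share.
Runx1: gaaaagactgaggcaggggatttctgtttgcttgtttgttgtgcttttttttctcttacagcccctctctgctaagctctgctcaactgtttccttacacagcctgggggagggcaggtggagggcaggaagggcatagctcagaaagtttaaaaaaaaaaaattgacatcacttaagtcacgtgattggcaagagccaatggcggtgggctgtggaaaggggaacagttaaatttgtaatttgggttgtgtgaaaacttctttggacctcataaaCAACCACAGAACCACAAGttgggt
Runx2: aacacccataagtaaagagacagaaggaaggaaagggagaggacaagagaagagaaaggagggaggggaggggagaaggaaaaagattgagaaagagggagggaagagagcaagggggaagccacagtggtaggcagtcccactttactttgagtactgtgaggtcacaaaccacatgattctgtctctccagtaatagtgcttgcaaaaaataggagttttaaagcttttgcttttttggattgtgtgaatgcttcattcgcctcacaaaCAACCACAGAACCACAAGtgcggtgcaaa
Runx3: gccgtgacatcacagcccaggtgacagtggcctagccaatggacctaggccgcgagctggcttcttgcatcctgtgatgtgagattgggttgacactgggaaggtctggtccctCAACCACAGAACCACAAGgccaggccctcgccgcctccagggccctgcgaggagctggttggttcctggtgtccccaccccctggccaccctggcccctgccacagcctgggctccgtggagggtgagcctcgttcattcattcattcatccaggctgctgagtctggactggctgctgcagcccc
The shared run of 18 bases, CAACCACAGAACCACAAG, begins 26 bases after the start in Runx1, 21 bases after it in Runx2, and at position -136 in Runx3. It was found in 4 of 32851 promoter windows on either strand, those of Runx1, Runx2, Runx3 and Gm16225. Runx1 and Runx2 share a longer run of 22 bases around it, AAACAACCACAGAACCACAAGT, found in no other of these windows. The run holds 2 matches to TGNGGT, the letters used here for a RUNX binding motif, searched on both strands with overlaps counted. Over the whole windows there were 5 matches in Runx2, 3 in Runx1 and 2 in Runx3. At least 1 match was present in 45.8% of all promoter windows and at least 3 in 3.28%. The proximal starts of Runx1 (chr16:92697280-92697579) and Runx3 (chr4:135152295-135152594) and the windows of Cbfb and Sox5 held none, which says only that these letters are not in those windows. Counts per gene do not say which start was used.

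Runx1 (ENSMUSG00000022952, mm10 chr16:92601466-92826149, minus strand) was the most abundant of the RUNX genes. It had 17431, 18688 and 18763 counts in controls 1 to 3 and 12977, 17354 and 15685 in cKO 1 to 3. Scaled to library size these were 308, 295 and 306 CPM against 271, 293 and 281 CPM. All cKO libraries were lower, but cKO 2 at 293 CPM lay just under control 2 at 295 CPM. The mean was 303 ± 6.94 CPM in controls and 282 ± 11.4 CPM in cKO (SD, n = 3 each). The log2 fold change was -0.13 ± 0.03 (SE, 95% interval -0.20 to -0.06), and the edgeR quasi-likelihood adjusted p was 0.0145. The call was lost with total-count scaling (adjusted p = 0.0507), without control 1 (0.0667) and without control 3 (0.0722). An antisense gene, Gm26626, overlaps 0.881% of the exon bases of Runx1 and had 105 to 153 counts per library.

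Runx2 (ENSMUSG00000039153, chr17:44495987-44814797, minus strand), the bone-determining member, had 3129, 3398 and 3388 counts in controls and 2003, 2868 and 2590 in cKO. In CPM these were 55.3, 53.7 and 55.2 in controls and 41.8, 48.5 and 46.4 in cKO, with cKO 1 the lowest and a clear gap between the groups. The mean fell from 54.7 ± 0.925 to 45.6 ± 3.43 CPM. The log2 fold change was -0.29 ± 0.05 (SE, 95% interval -0.39 to -0.19, edgeR adjusted p = 0.000437). The antisense gene Runx2os1 overlaps 5.87% of the exon bases of Runx2 and had 86, 117 and 88 counts in controls and 50, 95 and 90 in cKO, far fewer than Runx2 itself.

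Runx3 (ENSMUSG00000070691, chr4:135120652-135177990, plus strand) was near the limit of detection at this depth. It had 19, 28 and 17 counts in controls and 13, 21 and 17 in cKO, or 0.352 ± 0.0838 and 0.310 ± 0.0422 CPM. The groups overlapped, and with counts this low the 95% interval of the log2 fold change reached from -0.81 to 0.41 (estimate -0.20, edgeR adjusted p = 0.728). The counts thus do not tell a fall from a rise within that interval.

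Cbfb (ENSMUSG00000031885, chr8:105170674-105217989, plus strand), the partner that all RUNX proteins use, had 16017, 18634 and 18503 counts in controls and 12764, 15611 and 15084 in cKO. Its CPM values were 283, 294 and 301 in controls and 266, 264 and 270 in cKO. The cKO libraries lay close together and under all controls. The means were 293 ± 9.13 and 267 ± 3.16 CPM, and the log2 fold change was -0.16 ± 0.03 (SE, 95% interval -0.23 to -0.09, edgeR adjusted p = 0.00276). No other annotated gene overlaps its exons.

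The make-up of the RUNX pool was taken per library as each gene's share of the summed TPM of Runx1, Runx2 and Runx3. Runx1 made up 80.2%, 79.9% and 80.1% in controls and 82.5%, 81.4% and 81.5% in cKO. The share of Runx2 was 19.6%, 19.8% and 19.7% in controls and 17.3%, 18.3% and 18.3% in cKO, a difference of -1.70 percentage points between the group means. Both shares separated the groups fully, at p = 0.1 by a two-sided exact permutation test, which is the smallest value that 3 against 3 allows. Because Runx3 adds so little, the shares of Runx1 and Runx2 mirror each other and are a single result. Runx3 contributed 0.224% ± 0.0580 in controls and 0.216% ± 0.0194 in cKO (SD, n = 3 each, exact permutation p = 0.9). Cbfb over the summed RUNX level was 2.68 ± 0.114 in controls and 2.68 ± 0.138 in cKO (exact permutation p = 1), and the libraries of the groups overlapped. Within the pool, the share of Runx2 was thus lower in each cKO library than in any control. The ratio of partner to pool differed by less than the spread between libraries.

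Sp7 (ENSMUSG00000060284, chr15:102356606-102367182, minus strand), the zinc finger factor of osteoblasts, had the largest fall of the 8. It had 3238, 3908 and 3662 counts in controls and 2188, 2939 and 2626 in cKO. The CPM values were 57.3, 61.7 and 59.6 in controls and 45.6, 49.7 and 47.0 in cKO, and the highest cKO library lay well under the lowest control. The mean fell from 59.5 ± 2.23 to 47.5 ± 2.06 CPM. The log2 fold change was -0.35 ± 0.04 (SE, 95% interval -0.44 to -0.27, edgeR adjusted p = 1.83e-05), and it stayed between -0.38 and -0.33 when each library was left out in turn. No other annotated gene overlaps its exons. In TPM, the ratio of Sp7 to Runx1 was 0.657, 0.740 and 0.691 in controls and 0.597, 0.599 and 0.592 in cKO. The ratio of Sp7 to Runx2 was 2.83 ± 0.151 in controls and 2.71 ± 0.111 in cKO (SD, n = 3 each), with overlapping libraries. These ratios were chosen after their values were seen and were not tested.

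Sox8 (ENSMUSG00000024176, chr17:25565892-25570686, minus strand) was the member called higher. Its counts were 768, 815 and 787 in controls and 815, 1115 and 855 in cKO, which is 13.6, 12.9 and 12.8 CPM against 17.0, 18.9 and 15.3 CPM. Every cKO library exceeded every control, and cKO 2 was the highest. The means were 13.1 ± 0.426 and 17.1 ± 1.77 CPM, and the log2 fold change was 0.36 ± 0.07 (SE, 95% interval 0.22 to 0.50, edgeR adjusted p = 0.00142). The antisense gene 2810468N07Rik overlaps 10.6% of the exon bases of Sox8 and had 63 to 68 counts in controls and 56 to 82 in cKO. The part of the macrophage, fibroblast and endothelial markers, which also were higher in cKO, was not tested in this rise. Nor was that of the Schwann cell markers, of which 6 of 8 tested had every cKO library above every control (20.3% of all tested genes). Only 1 of these 8 was called higher and 1 was called lower. Their sum was 244 to 252 CPM in controls and 230 to 237 CPM in cKO. The RefSeq window of Sox8 (GRCm38.p6, chr17:25570637-25570936, minus strand, 5′ to 3′) is shown as that of the only member called higher, and a link to this rise was not tested. Both matches to the GC box letters GGGCGG are in capitals.
Sox8: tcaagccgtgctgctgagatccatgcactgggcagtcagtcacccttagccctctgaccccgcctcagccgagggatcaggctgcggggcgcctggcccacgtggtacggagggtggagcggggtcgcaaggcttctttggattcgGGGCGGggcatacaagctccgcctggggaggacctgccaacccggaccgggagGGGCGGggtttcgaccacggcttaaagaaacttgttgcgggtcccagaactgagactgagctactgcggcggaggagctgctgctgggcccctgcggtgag
It held 1 match to TGNGGT and none of the 18-base run. A GC box in these letters was present in 35.7% of all promoter windows, so its presence does not set Sox8 apart.

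Sox9 (ENSMUSG00000000567, chr11:112782224-112787760, plus strand), the main cartilage factor, had 1196, 1168 and 1085 counts in controls and 675, 1184 and 1017 in cKO. In CPM these were 21.2, 18.4 and 17.7 against 14.1, 20.0 and 18.2, so that cKO 1 was the lowest of all libraries while cKO 2 and 3 lay among the controls. The means were 19.1 ± 1.83 and 17.4 ± 3.04 CPM, with a log2 fold change of -0.15 ± 0.10 (SE, 95% interval -0.35 to 0.06, edgeR adjusted p = 0.362). Sox5 (ENSMUSG00000041540, chr6:143828425-144781977, minus strand), which acts with SOX9 in chondrocytes, had 38, 28 and 40 counts in controls and 33, 35 and 32 in cKO. Its means were 0.589 ± 0.127 and 0.618 ± 0.0618 CPM, and the 95% interval of its log2 fold change spanned -0.44 to 0.53 (estimate 0.04, edgeR adjusted p = 0.934). The antisense gene Sox5os1 overlaps 9.25% of the exon bases of Sox5 and had 1 count in control 3 and 0 in the other libraries. For Sox5 too, the counts do not tell a fall from a rise within that interval.

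Sox8 and Sox9 changed places between the groups. In TPM, the ratio of Sox8 to Sox9 was 0.852, 0.925 and 0.962 in controls and 1.601, 1.25 and 1.11 in cKO, so Sox9 was the higher of the pair in every control and Sox8 in every cKO library. The ratio of Sox8 to Runx2 went from 0.678 ± 0.0187 to 1.06 ± 0.114 (SD, n = 3 each). These ratios too were chosen after their values were seen and carry no test.

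Ordered by TPM in controls, Cbfb came first (mean 179), followed by Runx1 (53.7), Sp7 (37.3), Runx2 (13.2), Sox9 (9.86), Sox8 (8.95), Runx3 (0.150) and Sox5 (0.0874). Cbfb lay above 96.0% of all tested genes, Sp7 above 82.8% and Runx2 above 64.7%, while Runx3 and Sox5 lay above 3.78% and 1.33%. Among neighbours in this order, only Sox9 and Sox8 had overlapping TPM ranges over the 3 controls. In cKO, Cbfb, Runx1 and Sp7 kept the first 3 places in every library. The fourth place went to Sox8 in cKO 1 and 2 and to Runx2 in cKO 3, and the ranges of Sox8, Runx2 and Sox9 overlapped between neighbours as the plot of TPM on a log axis shows. Runx3 and Sox5 kept places 7 and 8 in all 6 libraries. The order in controls was the same with the other measure of length.

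**Figure D2:**
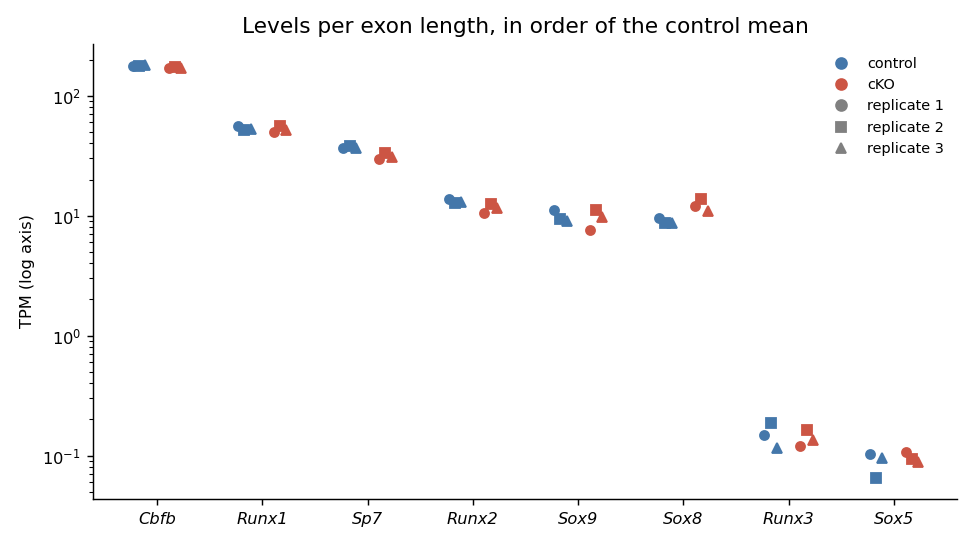
TPM of the 8 genes on a log axis, in order of the control mean, with control libraries in blue, cKO libraries in red and symbols for the replicate number. Cbfb is the highest in every library, Runx3 and Sox5 reach at most 0.186, and the points of Sox8 in cKO lie above those of Sox9 in the same library.

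All fold changes given so far rest on TMM scaling, which sets library sizes by a trimmed mean over all genes. How far they stand relative to myogenic markers was examined with a scaling added after the data were seen. The summed counts of the 13 myogenic markers served as the library size. Most of that sum (9737 to 9851 CPM in controls) came from Des (mean of 3199 CPM in controls), Chrna1 (2323) and Myog (2112). These genes were themselves called lower in cKO, so the scaling is relative to them more than to the number of myogenic cells. It moved the median log2 fold change of all tested genes to 0.17. Relative to those markers Sp7 was still lower (log2 fold change -0.18, edgeR adjusted p = 0.0130) and Sox8 still higher (0.53, adjusted p = 0.000106). Runx2 was at -0.12 (adjusted p = 0.130), and Cbfb and Runx1 turned to 0.0074 (adjusted p = 0.898) and 0.04 (adjusted p = 0.529). Sox9 also changed sign, to 0.02 (adjusted p = 0.881). Of the 4 genes called lower with TMM scaling, Sp7 was the only gene still called lower.

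**Figure D3:**
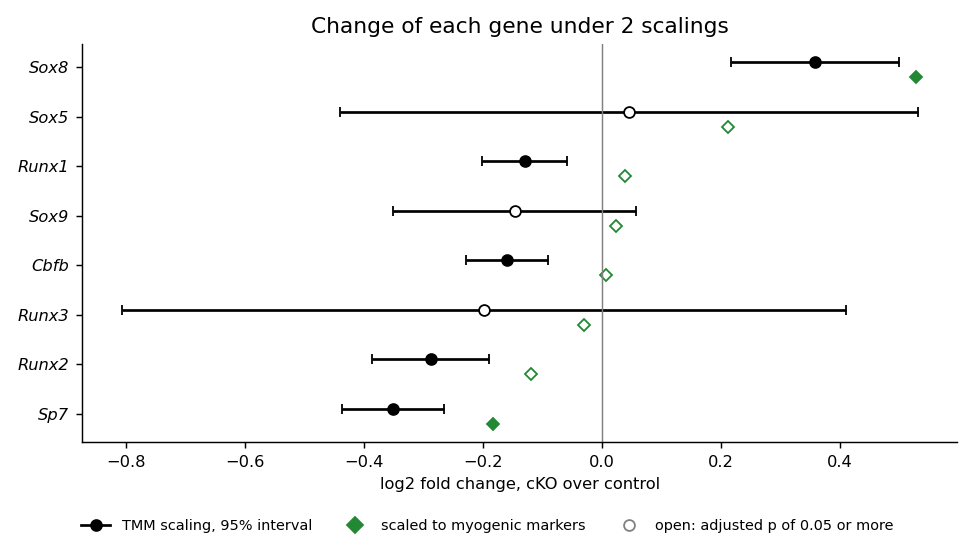
Log2 fold change of cKO over control for each of the 8 genes, with TMM scaling and its 95% interval in black and with scaling to the summed myogenic markers as green diamonds, where open symbols have an adjusted p of 0.05 or more. Sp7 lies to the left of 0 and Sox8 to the right of 0 under both scalings, while Runx1, Cbfb and Sox9 cross 0.

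Other genes were set beside each called member by the root mean square (RMS) difference of their log2 CPM deviations over the 6 libraries, among 12053 protein-coding genes with at least 1 CPM in every library. All of these comparisons share the same 6 libraries, and they are a description. The nearest to Sp7 were Cxcr4 (RMS difference 0.0247), Angpt1 (0.0268) and Met (0.0271), against a spread of Sp7 itself of 0.181. Those nearest to Runx2 were Palmd (0.0207), Kmt2d (0.0214) and Uso1 (0.0231). Runx1 was closest to Pbrm1 (0.0103), Dstyk (0.0123) and Six4 (0.0123), and Cbfb to Pknox1 (0.0139), Nfu1 (0.0147) and Wdr76 (0.0154). Sox8 was closest to Arhgef25 (0.0307), Ydjc (0.0329) and Mapre2 (0.0345). The spreads of Runx2, Runx1, Cbfb and Sox8 themselves were 0.158, 0.0740, 0.0850 and 0.196. A smaller RMS difference is therefore not by itself a closer match when members are compared.

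Of 17 other Sox genes 12 were tested, and 1 was called higher, 1 lower and 10 neither, which is near the background of 9.38% higher and 6.46% lower. Sox6, the partner of SOX5 and SOX9 in cartilage and a repressor of slow fibre genes in muscle, fell from 20.4 ± 0.518 to 18.1 ± 0.472 CPM (log2 fold change -0.20 ± 0.05 SE, edgeR adjusted p = 0.00783). Sox18, an endothelial factor, rose from 0.142 ± 0.0561 to 0.336 ± 0.0708 CPM (log2 fold change 1.18, adjusted p = 0.0350). It rested on 7, 13 and 6 counts in controls and 20, 18 and 16 in cKO, and in 4 of the 6 fits that left out 1 library no gene of this list was called higher. The most abundant Sox gene was Sox11, a factor of progenitor cells, with 406 ± 9.19 CPM in controls and 419 ± 13.1 in cKO (adjusted p = 0.732). Sox4 had 40.4 and 43.6 CPM (adjusted p = 0.287), Sox12 had 13.2 CPM in both groups, and Sox13 had 1.70 and 1.97 CPM (adjusted p = 0.372). Sox10, which marks Schwann and other neural crest cells and together with SOX8 and SOX9 forms the SoxE group, had 2.16 ± 0.151 and 2.78 ± 0.187 CPM (adjusted p = 0.0501), with every cKO library above every control.

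Among proteins that bind RUNX or SP7 or regulate them, 26 of 29 listed genes were tested, of which 6 were higher, 4 lower and 16 not called, against 9.38% of all tested genes higher and 6.46% lower. Twist1 and Twist2, which bind RUNX2 and block it in early bone, rose with log2 fold changes of 1.36 (adjusted p = 7.4e-08) and 1.18 (adjusted p = 0.00329). Twist1 had 142, 150 and 125 counts in controls and 282, 363 and 337 in cKO. Runx1t1 (ETO), a corepressor known from its fusion to RUNX1 in leukaemia, rose from 2.45 ± 0.202 to 4.79 ± 0.307 CPM. Smurf2, a ubiquitin ligase, rose from 104 ± 0.903 to 122 ± 2.29 CPM, and Msx1, a homeobox factor, from 1.34 ± 0.277 to 2.03 ± 0.308 CPM. On the other side, Hey1, a Notch target that represses RUNX2, had a log2 fold change of -0.45 ± 0.06 (SE, adjusted p = 7.4e-05). The corepressor Tle4 fell from 9.19 ± 0.437 to 7.43 ± 0.189 CPM, Foxo1 from 38.8 ± 1.01 to 33.3 ± 2.15 CPM, and the deacetylase Hdac5 from 75.1 ± 2.63 to 69.7 ± 1.98 CPM. The list as a whole had a median log2 fold change of -0.03, close to that of all genes. Twist1 and Twist2 are also made by fibroblasts, whose markers were higher in cKO (summed 793 to 874 CPM against 614 to 637), and the part of such cells in these rises was not tested.

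Osteoblast matrix and mineral genes went both ways, with 7 of 18 tested higher, 3 lower and 8 not called (median log2 fold change 0.14), where 9.38% of all tested genes were higher and 6.46% lower. Col1a1, a chain of type I collagen that fibroblasts make as well, rose from 120 ± 1.02 to 298 ± 23.8 CPM (log2 fold change 1.29 ± 0.04 SE, adjusted p = 1.4e-10). The collagenase Mmp13, a target of RUNX2, rose from 0.456 ± 0.101 to 1.05 ± 0.0646 CPM. Tnfrsf11b (osteoprotegerin) rose from 4.10 ± 0.129 to 7.80 ± 0.511 CPM, and Tnfsf11 (RANKL), the ligand it traps, from 1.09 ± 0.0987 to 1.83 ± 0.101 CPM. Enpp1, which makes pyrophosphate, rose from 3.89 ± 0.164 to 5.16 ± 0.541 CPM. Spp1 (osteopontin), made by osteoblasts, macrophages and regenerating muscle, was the most abundant of the list and fell from 1671 ± 32.9 to 1309 ± 75.9 CPM (log2 fold change -0.38 ± 0.04 SE, adjusted p = 4.2e-06). Sost, a Wnt antagonist of osteocytes, fell from 4.36 ± 0.439 to 2.34 ± 0.691 CPM, and Dmp1 from 12.9 ± 0.851 to 10.9 ± 0.707 CPM. The osteocalcin genes Bglap, Bglap2 and Bglap3, late targets of RUNX2, had between 6 and 23 counts in each library and were not called. Ibsp, another late target, had 5, 4 and 7 counts in controls and 0 in each cKO library and was too low to test. Col1a1, Col1a2 and Sparc, all called higher, are made by fibroblasts too, and the part of such cells was not tested.

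Of the 20 cartilage matrix genes listed, 11 were tested and 8 had under 10 counts in every library. Among the tested genes 3 were higher, none lower and 8 not called (median log2 fold change 0.18), beside a background of 9.38% higher and 6.46% lower. Col2a1, the defining collagen of cartilage and a direct target of SOX9, rose from 7.05 ± 0.216 to 12.8 ± 0.887 CPM (log2 fold change 0.83 ± 0.07 SE, adjusted p = 5.5e-07). Col11a1, which copolymerises with it, rose from 2.89 ± 0.155 to 5.83 ± 0.490 CPM, and Col27a1 from 2.25 ± 0.198 to 3.24 ± 0.315 CPM. Acan, the core proteoglycan of cartilage, had 1.71 ± 0.204 and 1.55 ± 0.147 CPM and was not called (adjusted p = 0.520). The part of the fibroblast markers, higher in cKO, was not tested in the rise of these collagens.

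In the hedgehog and PTHrP pathway, which sets the pace of growth plate cartilage, 10 of 12 genes were tested, with 1 higher, 1 lower and 8 not called (median log2 fold change 0.0091). These counts are near the background of 9.38% of tested genes higher and 6.46% lower, and the called genes are given as single values. Hhip, which binds hedgehog ligands, rose from 1.40 ± 0.225 to 2.69 ± 0.286 CPM (log2 fold change 0.91 ± 0.14 SE, adjusted p = 0.000276). Gli3, the repressor among the GLI factors, fell from 35.4 ± 0.952 to 30.6 ± 2.15 CPM (log2 fold change -0.23 ± 0.05 SE, adjusted p = 0.00331). The ligands Ihh and Shh were too low to test. The plot of the listed genes by fold change sets these groups side by side.

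**Figure D4:**
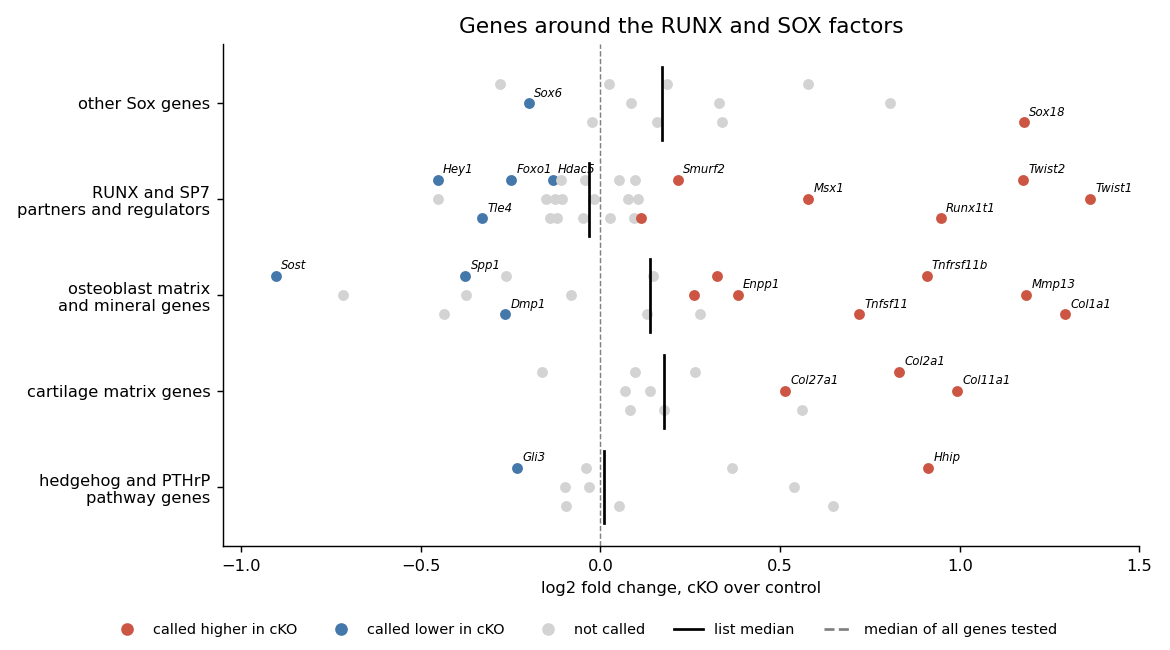
Log2 fold change of cKO over control for the tested genes of 5 lists around the RUNX and SOX factors, with genes called higher in red, called lower in blue and not called in grey, the list medians as black bars and the median of all tested genes as a dashed line. The partners list and the osteoblast list have called genes on both sides of 0, and the 3 called cartilage genes lie to the right.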

How the data were processed

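RNA-seq libraries (TruSeq Stranded Total with Ribo-Zero Gold, 400 ng RNA, single-end 75 bp) were aligned by the authors with Bowtie2 2.3.4.2 to mm10, without split reads over introns, and the deposited raw counts per gene were made with featureCounts 1.6.3. The settings for strand and multiply mapped reads are not given in the sources used here. The authors' comparison table, made with DESeq2 2.11.40.6, holds mean normalized counts, log2 fold changes of control over cKO, standard errors, Wald statistics, p-values and adjusted p-values, and was not used, nor was their table of normalized values.

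All 55536 identifiers matched GENCODE M21, which gave symbols, mm10 coordinates and merged exon lengths. Totals of 47944477 to 63323577 counts per library and a common coefficient of variation of 3.92% between replicates set the precision. CPM is the count scaled to the total of the library, and TPM was computed here from counts per merged exon length. The cKO libraries were compared with controls by the quasi-likelihood test of edgeR 4.0.16 in R 4.3.3, after filterByExpr and TMM scaling and with no covariate, two-sided, with Benjamini-Hochberg adjustment over 22404 genes and calls at an adjusted p under 0.05. The same steps were tested on simulated data. Replicates of a group differed by more than counting error, so none was a plain copy of another. This cannot show whether they came from separate mice.

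Named genes are the 8 members, Hira, in each list up to 5 called genes with the largest rise and up to 5 with the largest fall (at least 10 counts in each library of the higher group, no overlap), Sox genes of at least 1 CPM, and the 3 genes nearest to each called member. Col1a2, Sparc, Bglap, Bglap2, Bglap3, Ibsp, Acan, Ihh and Shh and the named markers were added after their values were seen. The members and lists were chosen with earlier results of these data known, so no list is independent support. Alternatives were DESeq2 1.42.0, a likelihood-ratio test, other scalings, filters and thresholds, the replicate number as a block, and leaving out each library. Promoter windows came from RefSeq (GRCm38.p6), which matched 6 of the 8 members, all but Sox9 and Sp7.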

Additional observations from a re-analysis of the deposited data

How the results depend on the processing

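Under other tests, filters, scalings by size factors or totals, the replicate block, both thresholds and each left-out library, Sp7, Runx2, Cbfb and Sox8 kept their call and direction. Leave-one-out log2 fold changes ranged from -0.38 to -0.33 for Sp7, -0.33 to -0.23 for Runx2, -0.18 to -0.14 for Cbfb and 0.28 to 0.43 for Sox8. Runx1 ranged from -0.16 to -0.10, and it missed the threshold with total-count scaling (-0.10), without control replicate 1 (-0.12), without control replicate 3 (-0.12) and at an adjusted p under 0.01. Genes at few counts changed sign: Runx3 reached 0.0058 without control replicate 2 (range -0.35 to 0.0058), and Sox5 -0.13 without control replicate 2 and -0.03 without cKO replicate 1 (range -0.13 to 0.15). The cause was not tested.

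Scaling to the myogenic markers, chosen after seeing the data, left 1 member called lower, turned Runx1 (0.039), Cbfb (0.0074) and Sox9 (0.02), and called 9065 genes higher and 241 lower, by construction relative to markers that were themselves lower. Of all calls 59.2% were higher with TMM scaling, 70.0% with total counts and 97.4% with the myogenic markers. Genes called lower numbered 1448, against 732 at an adjusted p under 0.01 and 917 to 1673 with a library left out (917, 934 and 960 without control replicates 1, 2 and 3). Other Sox genes called higher numbered 1, but 0 with DESeq2, the replicate block and an adjusted p under 0.01, 2 with the likelihood-ratio test and total counts, and 0 to 1 with a library left out. Partners called lower numbered 7 without a filter. Hedgehog genes called higher numbered 1 to 2 with a library left out (2 without cKO replicate 3).

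In the RUNX make-up, differences near 0 changed sign: the share of Runx3 ranged from -0.033 to 0.024 percentage points with a library left out, and Cbfb over the summed RUNX level was -0.0028 on counts without length and ranged from -0.062 to 0.078 with a library left out. Shares of Runx1 and Runx2 kept their direction in every alternative run.

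Libraries with the same replicate number did not deviate together (correlations -0.013, -0.0045 and -0.015). This cannot show whether such libraries were collected or processed together. With the replicate block 1901 genes were called higher and 1251 lower, and it changed no member's call (adjusted p = 0.0325 for Runx1 with edgeR). Runx3 and Sox5 had few counts in every library, and these do not tell a fall from a rise within the intervals of their log2 fold changes. The part of counting error in their spread was not tested.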
